A study of Homo sapiens with 6 samples.

Results

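The 8 genes described here encode enzymes that make prostaglandins from membrane lipid or break them down. They were chosen by name, as PLA2G4A, PTGS1, PTGS2, PTGES, PTGES2, PTGES3, PTGR1 and HPGD, and all 8 were among the 17335 genes of the deposited expression table. The RNA came from A549, an established human cell line that derives from a lung adenocarcinoma, in 2 groups of 3 libraries each. One group had been given BRQ and the other the solvent DMSO. The title of the series names a DHODH inhibitor, DHODH being an enzyme of pyrimidine synthesis. The labels do not spell out BRQ, which is read here as that inhibitor. The labels give no dose and no exposure time, and all cells were grown in F12K medium with serum and antibiotics.

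In prostaglandin synthesis, a phospholipase first frees arachidonic acid from membrane phospholipid, a cyclooxygenase turns it into the unstable intermediate prostaglandin H2, and a terminal synthase converts that into a final product such as prostaglandin E2. The product is inactivated inside cells by an oxidation step followed by a reduction step. In lung epithelium and in many carcinomas the inducible cyclooxygenase and prostaglandin E2 are known for their part in inflammation, and the dehydrogenase that inactivates prostaglandin E2 is known to oppose them.

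The cyclooxygenases and the terminal prostaglandin E synthases each include genes that moved in opposite directions, so the upstream sequences of these genes are shown for reading beside their values. Each run is the 250 bases before a start site in RefSeq (GRCh38.p14), 5′ to 3′ on the gene's own strand. Capitals mark matches to the 6 motifs named below, on either strand. PTGS2 is at chr1:186680424-186680673 on the minus strand. PTGS1 has 2 listed starts on the plus strand, with upstream runs at chr9:122370283-122370532 and chr9:122375052-122375301. PTGES is at chr9:129753043-129753292 and the farthest upstream of the listed PTGES2 starts at chr9:128128441-128128690, both on the minus strand.
PTGS2: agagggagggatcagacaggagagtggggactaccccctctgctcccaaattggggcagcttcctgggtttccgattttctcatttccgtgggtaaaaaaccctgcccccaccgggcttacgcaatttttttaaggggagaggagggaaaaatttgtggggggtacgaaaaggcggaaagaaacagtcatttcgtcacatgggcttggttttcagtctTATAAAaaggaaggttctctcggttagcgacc
PTGS1 first start: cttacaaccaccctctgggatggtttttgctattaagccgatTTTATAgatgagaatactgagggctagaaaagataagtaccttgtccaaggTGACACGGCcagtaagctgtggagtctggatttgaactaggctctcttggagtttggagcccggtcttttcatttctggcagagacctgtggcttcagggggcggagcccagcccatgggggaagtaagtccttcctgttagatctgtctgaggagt
PTGS1 second start: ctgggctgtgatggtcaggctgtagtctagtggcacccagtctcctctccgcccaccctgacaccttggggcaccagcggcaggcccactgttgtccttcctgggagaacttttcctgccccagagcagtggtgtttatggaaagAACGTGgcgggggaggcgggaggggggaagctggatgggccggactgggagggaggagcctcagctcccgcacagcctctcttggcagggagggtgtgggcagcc
PTGES: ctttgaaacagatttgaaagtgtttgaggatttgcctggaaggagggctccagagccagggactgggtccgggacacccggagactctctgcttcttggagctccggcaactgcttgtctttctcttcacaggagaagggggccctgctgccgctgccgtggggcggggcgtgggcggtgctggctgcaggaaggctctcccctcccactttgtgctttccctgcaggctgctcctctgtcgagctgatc
PTGES2: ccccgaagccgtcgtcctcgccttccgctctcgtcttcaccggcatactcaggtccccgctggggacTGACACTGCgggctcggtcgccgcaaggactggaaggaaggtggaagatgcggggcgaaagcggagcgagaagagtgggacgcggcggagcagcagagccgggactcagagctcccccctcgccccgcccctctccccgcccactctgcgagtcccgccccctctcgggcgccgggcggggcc

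The motifs searched, in windows of 300 bases that reach 50 bases past the start, were the antioxidant response element core TGACNNNGC, the cyclic AMP response element TGACGTCA, the hypoxia response element core NACGTG, the E-box CACGTG, the TATA box TATAAA and the kappa B site. Every E-box is also a match to the hypoxia core. A match to the TATA box lay at position -32 from the PTGS2 start, on the gene's own strand. The match at -208 from the first PTGS1 start reads on the opposite strand, so it is a match of letters only. Of all 35116 RefSeq windows of that length 11.5% hold a match on either strand. The antioxidant core was found in 4 of the 12 windows of the 8 genes, which belong to PTGS1, PTGES2 and PTGES3, against 13.3% of all windows. The hypoxia core was found in 5 of 12, against 21.4% of all windows, the E-box in 2 (7.26% of all windows), the kappa B site in 1 (7.73%) and the full cyclic AMP element in 0 (1.85%). The kappa B match was in PTGES3. Only full matches to a consensus were marked or counted. Lack of a match, as for the kappa B site in PTGS2, therefore does not tell whether a variant site is present. The 3 genes with an antioxidant core did not share a direction, and gene-level values do not tell which PTGS1 or PTGES2 start was used.

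Library totals, worked back from the FPKM values, were 32195353 to 34908895 reads in BRQ and 27789225 to 29644462 reads in DMSO. FPKM divides the fragments of a gene by its length and by the library total, so levels of different genes can be set side by side. The labels name no separate cultures for the replicates. The p-values therefore reflect the variation among 3 libraries a group, and that variation may be technical. Of the 6 epithelial markers looked up, all were above 0.5 FPKM in all 6 libraries, with summed levels of 1368 to 1471 FPKM in BRQ and 1228 to 1243 FPKM in DMSO. The sum hides opposite moves of single markers. The keratin KRT7 had 344 to 367 FPKM in BRQ and 575 to 579 FPKM in DMSO, while KRT8 had 341 to 366 FPKM in BRQ and 196 to 202 FPKM in DMSO. KRT19 had 28.5 to 32.4 FPKM in BRQ and 3.03 to 4.40 FPKM in DMSO, and the adhesion molecule EPCAM had 2.87 to 4.44 FPKM in BRQ and 0.582 to 0.997 FPKM in DMSO. The labelled alveolar origin was not visible in surfactant genes, since SFTPA1, SFTPB and SFTPC reached at most 0.130 FPKM. Among markers of other cell types, several were near 0 (PTPRC of leukocytes at most 0.0114 FPKM, COL3A1 of fibroblasts at most 0.146 FPKM, PECAM1 of endothelium at most 0.0382 FPKM). Others were low but higher in BRQ. The leukocyte marker CD14 had 0.793 to 1.24 FPKM in BRQ and 0.177 to 0.253 FPKM in DMSO. The fibroblast marker PDGFRB had 0.271 to 0.420 FPKM in BRQ and 0 to 0.0183 FPKM in DMSO. CD3E and COL1A2 were also looked up but were not among the listed genes. The leukocyte marker sum was 144 to 152 FPKM in BRQ and 45.7 to 53.5 FPKM in DMSO, nearly all of it CD68, a lysosomal protein that epithelial lines also make. The fibroblast sum was 4.29 to 4.59 FPKM in BRQ and 1.22 to 1.73 FPKM in DMSO, mostly COL1A1. The endothelial sum was 0.117 to 0.188 FPKM in BRQ and 0 to 0.0398 FPKM in DMSO. The alveolar type 2 sum was 10.8 to 10.9 FPKM in BRQ and 7.61 to 8.34 FPKM in DMSO, and the difference lay in LAMP3 and NAPSA, since the lipid transporter ABCA3 had 6.85 to 7.35 FPKM in BRQ and 6.3 to 7.28 FPKM in DMSO. The part of these sums in the results was not tested.

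All 8 genes differed between BRQ and DMSO, 5 of them higher in BRQ (PTGS1, PTGES, PTGES3, PTGR1 and HPGD) and 3 lower (PLA2G4A, PTGS2 and PTGES2). The test was limma on log2(FPKM + 0.5) over the 12258 genes that reached 0.5 FPKM in 3 or more libraries, at a Benjamini-Hochberg adjusted p under 0.05. Among all tested genes 79.7% were called, 44.3% as higher and 35.4% as lower, so a high share of called genes is what the whole table shows and says nothing particular about prostaglandin enzymes. That balance depends on the scaling between libraries, since 5425 genes were called higher and 4343 lower here, against 4819 higher and 4906 lower with TMM factors and 4713 higher and 4959 lower with quantile normalization. Likewise the BRQ and DMSO values of all 8 did not overlap, as was the case for 81.4% of tested genes (44.9% with BRQ above and 36.5% with BRQ below). PTGS1 reached the filter through its BRQ libraries alone and could be tested only because it rose, while the other 7 genes were above 0.5 FPKM in all 6 libraries. The median log2 fold change of the 8 was 0.38, beside 0.07 for all tested genes. In a bulk culture, less RNA per cell and fewer cells with the RNA cannot be told apart.

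**Figure D1:**
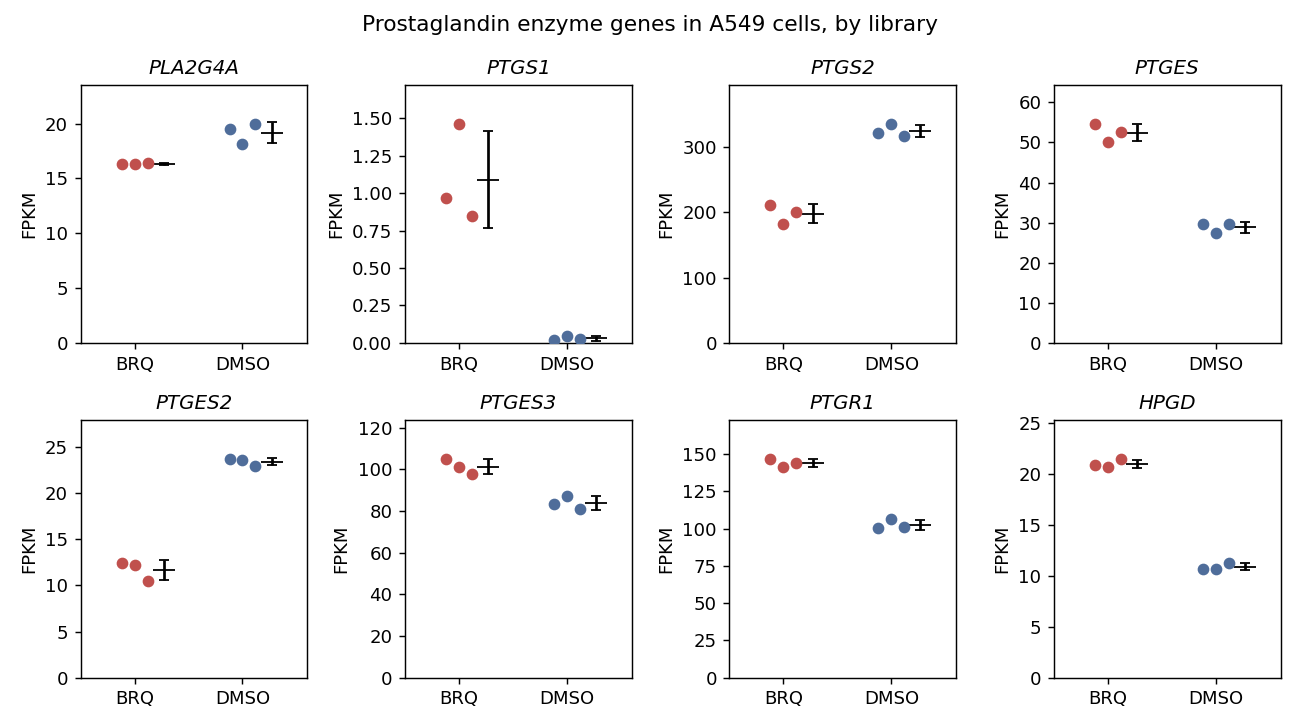
FPKM of each of the 8 genes in the 3 BRQ libraries (red) and the 3 DMSO libraries (blue); bars show mean and SD, and each vertical axis starts at 0 with its own scale. In every panel the 3 BRQ points lie on one side of the 3 DMSO points, with the highest levels for PTGS2 (181.96 to 210.1 FPKM in BRQ and 316 to 334 FPKM in DMSO).

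PLA2G4A encodes the cytosolic phospholipase A2 that frees arachidonic acid when calcium rises. The gene lies on chromosome 1 from 186828949 to 186988981 (GRCh38, plus strand), 148525 bases from PTGS2. It had 16.3, 16.3 and 16.4 FPKM in the BRQ libraries and 19.5, 18.1 and 19.9 FPKM in the DMSO libraries. The BRQ libraries were nearly identical, with a coefficient of variation of 0.478%, and all lay below the lowest DMSO library, replicate 2. PLA2G4A fell by 0.22 on the log2 scale (SE 0.05, limma adjusted p = 0.00114), the smallest change of the 8, and 28.2% of tested genes had a smaller absolute change.

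PTGS2, the inducible cyclooxygenase known as COX-2, was the most abundant of the 8 genes in both groups. It lies on chromosome 1 from 186671791 to 186680423 on the minus strand. Its level was 210.1, 181.96 and 200.3 FPKM in the BRQ libraries and 320.2, 334 and 316 FPKM in the DMSO libraries. Every BRQ library was lower than every DMSO library, and BRQ replicate 2 was the lowest of all. PTGS2 ranked 258 by mean FPKM among the 17335 listed genes in BRQ and 129 in DMSO, so it remained among the higher levels of the table in both groups. The fall was 0.71 on the log2 scale (95% interval of the fold change -0.82 to -0.61, adjusted p = 2.68e-07), a mean level 0.610 times that of DMSO. Among tested genes 10.96% had a log2 fold change as low or lower.

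PTGS1 is the other cyclooxygenase, COX-1, which many tissues make without a stimulus. It lies on chromosome 9 from 122370533 to 122395703 on the plus strand. It had 0.965, 1.46 and 0.846 FPKM in the BRQ libraries, and 0.0173, 0.0487 and 0.0281 FPKM in the DMSO libraries. These levels came from 198, 293 and 184 reads in BRQ and from 3, 9 and 5 reads in DMSO. The BRQ libraries varied widely, with replicate 2 the highest, but none came near the DMSO level. All DMSO values were below the filter of 0.5 FPKM, so PTGS1 could be tested only because it was higher in BRQ. PTGS1 rose by 1.56 on the log2(FPKM + 0.5) scale (SE 0.15, limma adjusted p = 3.31e-06). The pseudocount shrinks that value. The mean FPKM was 34.7 times that of DMSO, and the ratio of read rates was 34.1 with an exact Clopper-Pearson 95% interval of 21.2 to 58.9, which covers counting error only. On reads, limma-voom gave a log2 fold change of 5.04, while a pseudocount of 0.1 gave 3.15 and quantile normalization 1.13.

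Even so, PTGS1 remained a small part of the cyclooxygenase RNA. It held 0.558 ± 0.207% of the summed PTGS1 and PTGS2 FPKM in BRQ and 0.00962 ± 0.00462% in DMSO (SD, n = 3 each). The sum of both genes was 198.6 ± 14.02 FPKM in BRQ and 324 ± 9.45 FPKM in DMSO, so the summed level followed PTGS2.

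PTGES encodes microsomal prostaglandin E synthase 1, the inducible terminal enzyme that is often found together with COX-2. The gene lies on chromosome 9 from 129738349 to 129753042 on the minus strand. PTGES had 54.5, 50.1 and 52.7 FPKM in the BRQ libraries and 29.7, 27.3 and 29.7 FPKM in the DMSO libraries. The groups were far apart, with the lowest library of each being replicate 2. PTGES rose by 0.85 on the log2 scale (SE 0.05, limma adjusted p = 5.01e-08), a mean 1.82 times that of DMSO. PTGS2 thus fell while PTGES rose in the same libraries, and PTGS2 had 3.76 ± 0.118 times the FPKM of PTGES in BRQ and 11.2 ± 0.877 times in DMSO (SD, n = 3 each).

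PTGES2 encodes a second membrane-associated prostaglandin E synthase, known as mPGES-2, and lies on chromosome 9 from 128120693 to 128128440 on the minus strand. Its level was 12.4, 12.3 and 10.5 FPKM in the BRQ libraries and 23.7, 23.6 and 22.97 FPKM in the DMSO libraries. BRQ replicate 3 was the lowest, and the DMSO libraries lay within a narrow band. PTGES2 fell by 0.97 on the log2 scale (SE 0.06, limma adjusted p = 1.78e-07), the largest fall of the 8 and larger in size than the change of 83.6% of tested genes.

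PTGES3 encodes p23, a small protein known both as the cytosolic prostaglandin E synthase and as a co-chaperone of HSP90. It lies on chromosome 12 from 56663349 to 56688284 on the minus strand. It had 105, 101 and 98.1 FPKM in the BRQ libraries and 83.5, 87.3 and 80.8 FPKM in the DMSO libraries. All BRQ values lay above all DMSO values, and the gap between the groups was wider than the range within either. PTGES3 rose by 0.27 on the log2 scale (SE 0.04, limma adjusted p = 7.3e-05). GENCODE release 29 names 5 pseudogenes after it, so its level is uncertain where reads match several copies. Scaling between libraries moved its log2 fold change to 0.20 with TMM factors and 0.17 with quantile normalization, both still called.

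The make-up of the 3 prostaglandin E synthase genes shifted between the membrane-bound enzymes. PTGES held 31.7 ± 1.002% of their summed FPKM in BRQ and 21.2 ± 1.30% in DMSO. PTGES2 held 7.07 ± 0.513% in BRQ and 17.2 ± 0.128% in DMSO. PTGES3 held 61.2 ± 0.523% in BRQ and 61.6 ± 1.41% in DMSO (SD, n = 3 each), with overlapping values. The level of PTGES was 4.51 ± 0.477 times that of PTGES2 in BRQ and 1.23 ± 0.0692 times in DMSO.

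**Figure D2:**
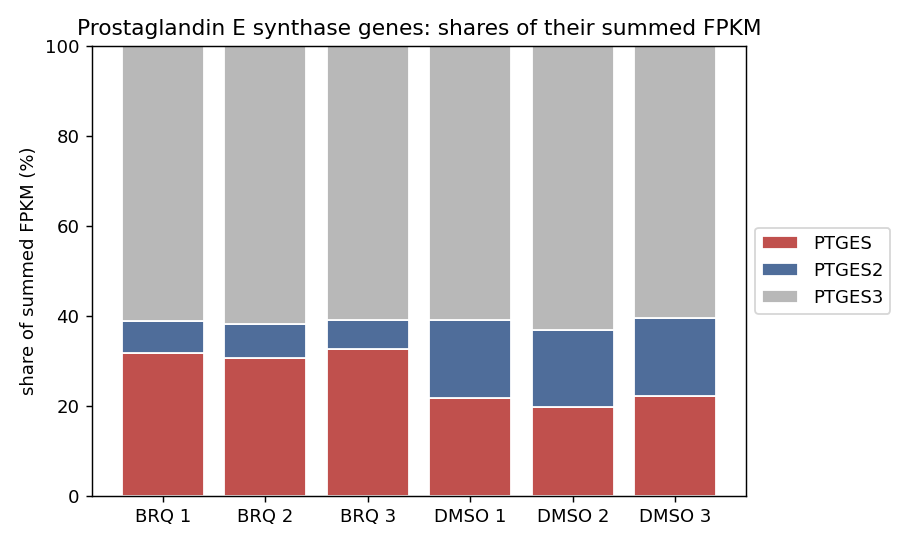
Share of PTGES, PTGES2 and PTGES3 in their summed FPKM, in percent, as stacked bars for the 3 BRQ and the 3 DMSO libraries. The PTGES part is 30.7% to 32.7% in BRQ and 19.7% to 22.2% in DMSO, the PTGES2 part is 6.5% to 7.5% in BRQ and 17.1% to 17.3% in DMSO, and the PTGES3 part is 60.8% to 61.8% in BRQ and 60.5% to 63.2% in DMSO.

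HPGD encodes 15-hydroxyprostaglandin dehydrogenase, the enzyme that oxidises prostaglandin E2 and so starts its inactivation. It lies on chromosome 4 from 174490175 to 174522893 on the minus strand. HPGD had 20.9, 20.7 and 21.5 FPKM in the BRQ libraries and 10.7, 10.7 and 11.3 FPKM in the DMSO libraries. Both groups were tight, with coefficients of variation of 2.0% in BRQ and 2.91% in DMSO. HPGD rose by 0.92 on the log2 scale (SE 0.04, limma adjusted p = 2.22e-08), a mean 1.93 times that of DMSO. PTGS2 had 9.4 ± 0.633 times the FPKM of HPGD in BRQ and 29.7 ± 1.56 times in DMSO, while the ratio of PTGES to HPGD was 2.5 ± 0.101 in BRQ and 2.65 ± 0.111 in DMSO (SD, n = 3 each).

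PTGR1 encodes prostaglandin reductase 1, which reduces the oxidised prostaglandin in the next step and also acts on leukotriene B4. It lies on chromosome 9 from 111549722 to 111599647 on the minus strand. PTGR1 had 147, 142 and 144 FPKM in the BRQ libraries and 100.4, 107 and 101 FPKM in the DMSO libraries. The groups stood clearly apart. PTGR1 rose by 0.49 on the log2 scale (SE 0.03, limma adjusted p = 2.38e-07), a size near the middle of the table, where 55.4% of tested genes had a smaller absolute change. Both breakdown genes were thus higher in BRQ. None of the 8 genes shares exon bases with another gene of GENCODE release 29, which may not be the annotation used for counting.

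**Figure D3:**
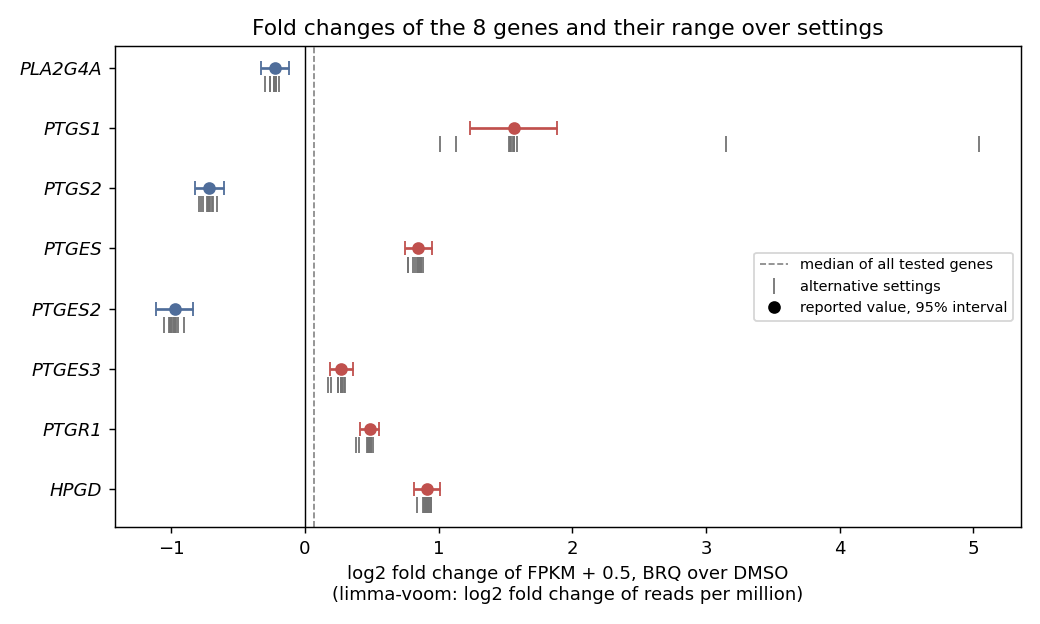
Log2 fold changes, BRQ over DMSO, of the 8 genes with their 95% limma intervals (circles, red for higher and blue for lower in BRQ), with the values under the alternative settings as grey ticks and the median of all tested genes (0.07) as a dashed line. The ticks stay near the reported value for 7 genes and spread from 1.01 to 5.04 for PTGS1, the gene with 17 reads in the DMSO libraries together.

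In order of mean level the genes ran PTGS2 (197 FPKM), PTGR1 (144 FPKM), PTGES3 (101 FPKM), PTGES (52.4 FPKM), HPGD (21.0 FPKM), PLA2G4A (16.3 FPKM), PTGES2 (11.7 FPKM) and PTGS1 (1.09 FPKM) in BRQ. In DMSO the order was PTGS2 (324 FPKM), PTGR1 (103 FPKM), PTGES3 (83.9 FPKM), PTGES (28.9 FPKM), PTGES2 (23.4 FPKM), PLA2G4A (19.2 FPKM), HPGD (10.9 FPKM) and PTGS1 (0.0314 FPKM). The values of neighbours in each order did not overlap between libraries. HPGD and PTGES2 changed places, HPGD being the seventh gene in DMSO and the fifth in BRQ.

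The genes with the profile most like PTGS1, which had the largest rise of the 8, were C6orf58, ADTRP and MDFI. Like PTGS1, ADTRP and MDFI passed the filter only through BRQ values. Likeness was measured as the root mean square difference of gene-centred log2 values over the 6 libraries. It was 0.07 for C6orf58, the only tested gene within 0.1 of PTGS1. This likeness holds on the log2(FPKM + 0.5) scale, where the pseudocount shrinks the change of low genes. The ratio of mean FPKM, BRQ over DMSO, was 3.96 for C6orf58, 10.3 for ADTRP and 15.5 for MDFI, against 34.7 for PTGS1, so the folds themselves were not alike. For PTGES2, which had the largest fall, the nearest genes were ZNF282 (0.02), ARMC6 (0.04) and PCED1A (0.04), but 217 tested genes lay within 0.1, so such a profile was common.

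Other genes of the pathway were looked up in 8 lists, which besides PLA2G4A held 59 tested genes. Of these 38 rose and 15 fell, while 6 passed in neither direction. Among the 38, TBXAS1, HSD17B6, ALOX15 and CYP4F2 passed the filter only through BRQ values and could be tested only because they rose. The median log2 fold change of the 59 was 0.31. The lists were chosen with earlier results of these data known, and are described by their counts beside the 44.3% and 35.4% of all tested genes called as higher and lower.

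For arachidonate release and reacylation, 10 of 14 tested genes rose and 4 fell, with a median of 0.70. Other phospholipases differed from PLA2G4A in direction. The cytosolic PLA2G4C averaged 11.4 ± 0.612 FPKM in BRQ and 4.46 ± 0.351 FPKM in DMSO (log2 fold change 1.26), and the secreted type PLA2G12A averaged 6.98 ± 0.645 FPKM in BRQ and 2.84 ± 0.319 FPKM in DMSO (1.16), though 15.7% of its exon bases belong to a second annotated gene too. ANXA1, a phospholipid-binding protein known to restrain phospholipase A2, averaged 704 ± 17.1 FPKM in BRQ and 347 ± 3.87 FPKM in DMSO (1.02). LPCAT3, which puts arachidonate back into phospholipid, rose by 1.53, but 65.6% of its annotated exon bases lie opposite those of EMG1, so without strand-specific counting its level is uncertain. With PLA2G4A the genes that fell were DAGLB (-0.93), DAGLA (-0.42) and MGLL (-0.31), which form and cleave monoacylglycerols that can carry arachidonate. DAGLB shares 6.53% of its exon bases with the more abundant KDELR2, and all 3 were named after their values were seen.

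The other prostanoid synthases and reductases rose in 6 of 6 tested cases, with a median of 0.79. The carbonyl reductases CBR1 and CBR3, of which CBR1 acts on prostaglandin E2, had log2 fold changes of 1.14 and 1.40. For CBR1 18.9% and for CBR3 42.2% of annotated exon bases lie opposite another transcript, so both are uncertain without strand. The prostaglandin F synthases AKR1B1 and AKR1C3 were named after their values were seen. AKR1B1 averaged 1693 ± 26.9 FPKM in BRQ and 879.996 ± 13.3 FPKM in DMSO, and AKR1C3 averaged 355 ± 8.69 FPKM in BRQ and 226 ± 5.58 FPKM in DMSO; reads of AKR1C3 may be divided with its close relatives. TBXAS1, thromboxane synthase, passed the filter only through BRQ values, and its rise of 0.56 was not called with quantile normalization, where it was -0.03.

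Among genes for uptake, export and other breakdown steps 4 of 6 rose and 2 fell, with a median of 0.44. The second reductase PTGR2 (0.70) and ZADH2 (0.31), an older symbol of prostaglandin reductase 3, rose along with PTGR1. HSD17B6 (1.57), counted among the 4, passed the filter only through BRQ values. Neither the deposited arachidonic acid pathway nor the deposited prostaglandin terms include HSD17B6, so its rise is not read as that of a prostaglandin breakdown enzyme. The size of the HSD17B6 change is set by the pseudocount, as for PTGS1. It had 209 reads in the BRQ libraries and 6 reads in the DMSO libraries together, a ratio of mean FPKM of 30.1, and its log2 fold change ran from 1.02 to 4.54 over the alternatives. The export pump ABCC4 fell by 0.41 and SLCO3A1, a carrier of prostaglandins, fell by 1.20. Except for SLCO3A1, the choice of these names followed their values. For PTGR2, 18.03% of exon bases lie opposite an antisense gene. On its own strand it shares 12.3% of exon bases with AC005520.1 and 2.61% with the more abundant ZNF410, which strand-specific counting would not separate. SLCO2A1, the main prostaglandin uptake carrier, had 0 reads in the BRQ libraries and 1 read in the DMSO libraries together.

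Of the prostanoid receptors 8 were listed and 2 were tested. PTGER4, the EP4 receptor for prostaglandin E2, averaged 2.52 ± 0.317 FPKM in BRQ and 6.68 ± 0.684 FPKM in DMSO, a fall of 1.25 on the log2 scale (SE 0.10, limma adjusted p = 8.54e-07). PTGER2, the EP2 receptor, had 0.821 ± 0.0326 FPKM in BRQ and 0.656 ± 0.158 FPKM in DMSO (log2 fold change 0.20, limma adjusted p = 0.138). It was called higher without DMSO replicate 1 (0.31, adjusted p = 0.0332), and its sign turned with quantile normalization. The other 6 receptors were below the filter.

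In the lipoxygenase and epoxygenase arms, which compete for arachidonate, 7 of 9 tested genes rose and 0 fell, with a median of 1.34. Of the 9, 2 passed the filter only through BRQ values, CYP4F2 and ALOX15, both named after their values were seen. CYP4F2 had 445 reads in the BRQ libraries and 1 read in the DMSO libraries together, and ALOX15 had 223 and 2. Called genes at or above 1 in log2 fold change and 1 FPKM in mean were EPHX1 (1.43), EPHX2 (1.03), CYP4F3 (1.34) and CYP4F11 (1.73). EPHX1 and EPHX2 are epoxide hydrolases, and CYP4F3 is a cytochrome that hydroxylates leukotrienes. CYP4F2, CYP4F3 and CYP4F11 are close copies among which reads may be divided. LTA4H, which makes leukotriene B4, a substrate of PTGR1, rose by 0.66 and was named after its value was seen. ALOX5AP (0.39, adjusted p = 0.143) and ALOXE3 (-0.10, adjusted p = 0.257) were not called.

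Genes of HSP90 chaperones and co-chaperones, a list that is wider than the partners of p23 and includes HSP90B1, were called higher in 7 of 11 cases and lower in 2 (median 0.23). HSP90AA1, the inducible cytosolic HSP90, averaged 382 ± 7.74 FPKM in BRQ and 180.3 ± 1.58 FPKM in DMSO (log2 fold change 1.08). HSP90AB1, its constitutive form, rose by 0.27, close to PTGES3 itself, and AHSA1, which speeds up the HSP90 cycle, by 0.51. STIP1 (-0.23) and CDC37 (-0.27), which bring clients to HSP90, fell, while FKBP5 (0.07, adjusted p = 0.464) and PPID (0.07, adjusted p = 0.346) were not called. With TMM factors or quantile normalization 5 rose and 2 fell. All of these but HSP90AA1 were picked out once values were known.

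Genes of proteins known to bind PTGS2 mRNA were called lower in 7 of 9 cases, with a median of -0.32. These values are of RNA, and the proteins were not measured. ZFP36L2, a member of the tristetraprolin family that promotes decay of such mRNAs, averaged 25.6 ± 0.850 FPKM in BRQ and 101 ± 1.74 FPKM in DMSO, a fall of 1.96 on the log2 scale. The RNA of ELAVL1 (-0.32), which stabilises them, and of TIA1 (-0.54), which limits their translation, fell as well. The others called lower were IGF2BP1 (-0.57), RBM3 (-0.43), ZFP36L1 (-0.22) and HNRNPD (-0.14). ZFP36, tristetraprolin itself, had 68.8 ± 4.25 FPKM in BRQ and 69.0 ± 2.25 FPKM in DMSO (adjusted p = 0.914). KHSRP was called higher (0.11), but not with TMM factors (0.03) or quantile normalization (0.05). Apart from ZFP36L2, these names were chosen once values were known. In the membrane family of PTGES, MGST1 (0.25), MGST2 (0.27) and MGST3 (0.40), glutathione transferases, rose, MGST2 not being called with quantile normalization (adjusted p = 0.0627), and ALOX5AP is given above.

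**Figure D4:**
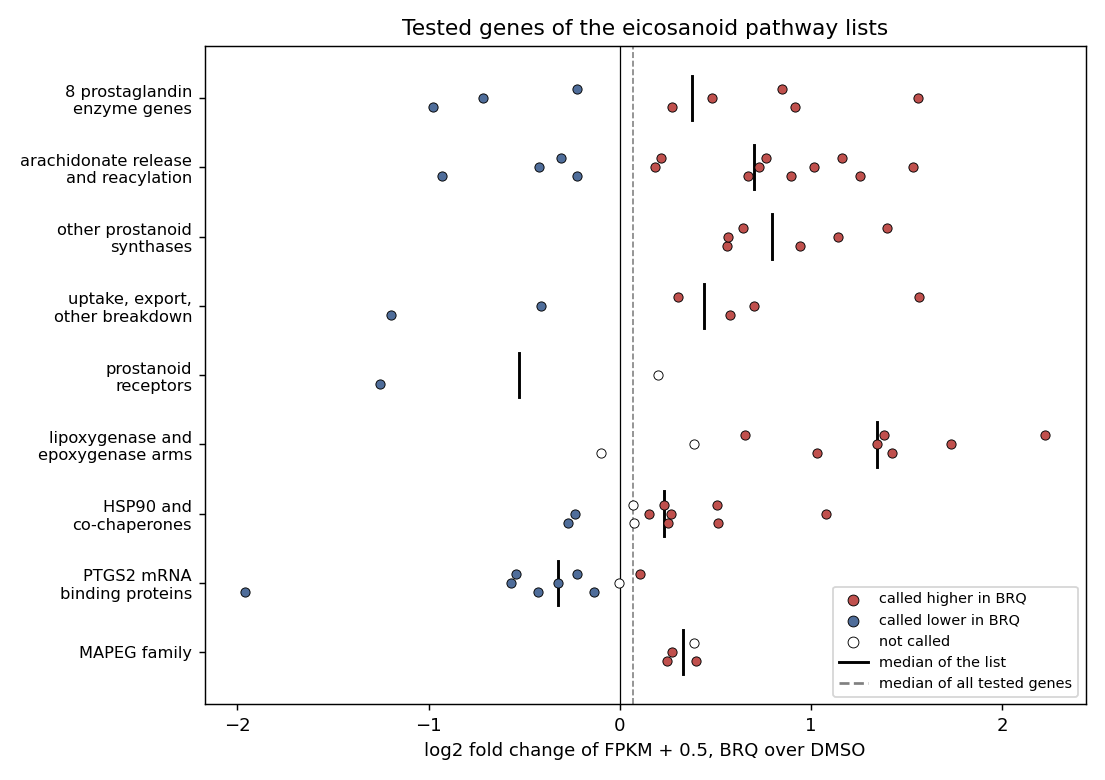
Log2 fold changes, BRQ over DMSO, of the tested genes in the group of 8 and in each of the 8 pathway lists; 1 point per gene, red for called higher, blue for called lower and white for not called, with a black bar at each list's median and a dashed line at the median of all tested genes (0.07). The other prostanoid synthase genes lie wholly to the right of 0, and of the genes of PTGS2 mRNA-binding proteins 7 of 9 are called to the left.

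The deposited annotation gave a wider view of the same pathway. It places 55 listed genes in arachidonic acid metabolism, of which 27 were tested, and 6 of these belong to the group of 8 described here. Of the 27, 22 rose, 3 fell and 2 passed in neither direction, with a median of 0.85, and 4 passed the filter only through BRQ values. These counts stand beside 44.3% of all tested genes called higher and 35.4% called lower. The 2 not called were CYP2E1 (log2 fold change 0.02) and CYP2U1 (0.02), which were both called lower with quantile normalization. The 3 that fell were PTGS2, PTGES2 and PLA2G4A. Their steps toward prostaglandin E2 also held genes that rose, among them PTGS1 (1.56), PTGES (0.85), PTGES3 (0.27), PLA2G4C (1.26) and PLA2G12A (1.16). Of 36 genes with a gene ontology term for prostaglandin biosynthetic, metabolic or catabolic process, 28 were tested, 18 rose and 5 fell, with a median of 0.35, beside the same shares of all tested genes. Of the 28, 2 (PTGS1 and TBXAS1) passed the filter only through BRQ values. ATP6V1B1, among those that fell, passed only through DMSO values (1.49 to 1.97 FPKM, against 0.193 to 0.365 FPKM in BRQ).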

How the data were processed

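RNA from A549 cells was sequenced in 3 BRQ and 3 DMSO libraries, made with standard Illumina protocols from 1.3 ug of total RNA, per the labels' protocols. Per the submitters' processing notes, fastp and HTSeq were used with build hg38; no versions are named. Aligner, annotation and strand setting are not given in sources used here. As deposited, the table holds FPKM values, 1 column per library, and the authors' scaling is per library. All 6 columns were used.

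Whole reads were worked back from the FPKM steps for all 17335 genes, to a tolerance of 0.01 read; the library totals are those the FPKM values were scaled by. log2(FPKM + 0.5) was fitted with limma 3.58.1 (eBayes with intensity trend, group as the only term) in R 4.3.3, for genes reaching 0.5 FPKM in 3 or more libraries. Two-sided p-values received a Benjamini-Hochberg adjustment across every tested gene. Intervals and read ratios cover counting error only where so stated. The fit was also run on simulated reads (12098 genes tested), in which most genes were left unchanged and all had the same extra variation. It recovered 60% of 50 genes changed 1.25-fold and 100% of 50 genes changed 1.5-fold, with 11 false calls. In the data most tested genes were called, so these figures do not carry over to BRQ against DMSO.

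The members and lists were chosen with earlier results of these data known. Text names all 8 genes and, per list, called genes with an absolute log2 fold change of at least 1 and a mean of at least 1 FPKM, otherwise up to 2 called genes that changed most. The 3 genes nearest in profile are named for PTGS1 and PTGES2. Coordinates and upstream sequences come from RefSeq (GRCh38.p14), matched by Entrez ID and symbol for all 8 genes, and overlaps from GENCODE release 29. The 16 alternatives used a pseudocount of 0.1 or 1, no filter, a mean of at least 1 FPKM, each library left out, a replicate block, array weights, no trend, quantile normalization, TMM factors and limma-voom on the recovered reads. Python 3.11.15, numpy 2.4.6, pandas 2.3.3 and matplotlib 3.10.9 did the rest.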

Additional observations from a re-analysis of the deposited data

How the results depend on the processing

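The 3 members called lower were called lower under all 16 alternatives, and the 5 called higher under all in which they were tested. With a mean of at least 1 FPKM, or without any one BRQ replicate, PTGS1 was not tested, which leaves 4 genes called higher. Leaving out each library gave 8880 to 9349 called genes in all, 4 to 5 of the members higher and 3 lower. The log2 fold change of PTGS1 was 1.54 to 1.59 without 1 DMSO library, and over all 6 libraries left out it was -0.26 to -0.20 for PLA2G4A and -0.76 to -0.66 for PTGS2. With the replicate number as a block 9629 genes were called against 9768, and the members' calls were 5 higher and 3 lower. Deviations of same-numbered libraries correlated at -0.04 to -0.01. No shared deviation was thus visible, but such values cannot tell whether same-numbered libraries were prepared together. The median log2 fold change of all genes was 0.07 as reported, 0.00072 with TMM factors and -0.02 with quantile normalization. With quantile normalization the sign turned for TBXAS1 (-0.029), PTGER2 (-0.17), FKBP5 (-0.065), ALOX5AP (-0.11), CYP2E1 (-0.39, adjusted p = 0.0399) and CYP2U1 (-0.495, adjusted p = 0.0038), and with TMM factors for PPID (-0.0062), CYP2E1 (-0.023) and CYP2U1 (-0.017). ZFP36 turned with array weights (0.0064). Leaving out 1 library, ZFP36 ran from -0.0395 to 0.0453, FKBP5 from -0.00094 to 0.131, CYP2E1 from -0.057 to 0.1397 and CYP2U1 from -0.0278 to 0.0679. Of these, TBXAS1 alone was called in the reported fit; the cause was not tested. The DMSO counts of PTGS1 (3 to 9 reads per library) limit the precision of its fold.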
